A study of Homo sapiens with 12 samples.

Results

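The H/ACA small nucleolar RNAs (snoRNAs) and the small Cajal body-specific RNAs (scaRNAs) were followed across wild-type and MAPKAPK2-knockout A375 cells, each with and without the BET bromodomain inhibitor JQ1. They were taken as every row of the count table with a symbol SNORA or SCARNA followed by a number (and, for SNORA, at most 1 letter) and at least 10 estimated counts summed over the 12 libraries. Of 56609 rows, 179 had such a symbol and 137 reached the minimum, 115 SNORA and 22 SCARNA genes. The levels chose the members, so being expressed is no finding about them. SCARNA24 (10.0 summed counts), SNORA1 (10.1) and SNORA41 (11.2) lay just inside the minimum, and SNORA36 (8.0) and SNORA71 (6.2) just outside. SCARNA17, one of the few scaRNAs with a promoter of its own, had 2.9 and was not a member.

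A375 is a human melanoma cell line. There were 4 groups of 3 libraries: wild type with DMSO, the solvent; wild type with 500 nM JQ1; MAPKAPK2 knockout made by CRISPR/Cas9 with DMSO; and knockout with 500 nM JQ1. Each lasted 48 h, and the titles of the DMSO samples call them untreated. Whether the knockout is 1 clone or a pool is not given in the sources used here. Nothing says that the replicates are separate cultures, so the p-values measure the spread between these libraries.

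H/ACA RNAs fold into a pair of hairpins, the first followed by an H box and the second by an ACA box. They bind dyskerin (DKC1), NOP10, NHP2 and GAR1, and guide the conversion of uridine to pseudouridine in ribosomal RNA. The scaRNAs carry out the same reaction, or 2'-O-methylation by box C/D RNAs, on spliceosomal snRNAs in Cajal bodies, where WRAP53 brings the RNAs that carry a CAB box. Most human members are cut out of introns of host genes and trimmed at both ends, so host transcription, splicing and stability of the mature RNA all bear on their level.

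MAPKAPK2 itself was at 89.6 ± 2.20 CPM (counts per 1000000 counts; SD, n = 3 in every group) in wild type with DMSO and 117 ± 4.31 with JQ1. In the knockout it was at 12.4 ± 1.15 with DMSO and 14.4 ± 1.61 with JQ1, so RNA remained in the libraries labelled knockout. CPM here are scaled by TMM factors, which balance library composition. Library totals ran from 25316899 to 34594295 counts. SOX10 (389 to 687 CPM), MITF (25.6 to 44.1 CPM) and S100B (27.8 to 49.1 CPM) of the melanocyte lineage were present, while the pigment genes PMEL, MLANA, DCT and TYR stayed at or below 1.45 CPM. Of 11 markers of other cell types KRT1 had no count, PDGFRB of fibroblasts reached 10.9 CPM and the others stayed at or below 2.81 CPM (LYZ of leukocytes). Their part in the results was not tested.

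Replicate 3 of the knockout with JQ1 stood apart from its replicates. Chi-square per degree of freedom, a measure of the difference between 2 libraries, was 23.8 and 25.1 for it against replicates 1 and 2. The other replicate pairs had 3.21 to 7.05. In short structured RNA it had the highest share. The members took 0.327% of its counts, against 0.236% to 0.296% in the other 11 libraries. The short RNA polymerase III transcripts RN7SK, RN7SL1, RN7SL2, RMRP and RPPH1 took 15.3% of it, against 9.94% to 13.0% in the others. Counts, medians and member calls for JQ1 in the knockout are therefore also given without that library, and the part of this short-RNA share in them was not tested. The 4 groups share 1 estimate of spread, and leaving that library out also moved comparisons that do not use it. With JQ1 in wild type, 13 of 91 members and 38% of all genes were then called, against 11 of 89 and 33.1%. Between genotypes with DMSO it was 3 of 91 members and 11.9% of all genes, against 2 of 89 and 7.92%.

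Sequences of 6 members that carry the results are shown as a guide to what the counts measure. They are from GENCODE release 29 on GRCh38, 5′ to 3′ in the RNA's sense, with T for U. SNORA73A (chr1:28507366-28507571, plus strand) and SNORA73B (chr1:28508559-28508762, plus strand) are the U17 RNAs, which act in cleavage of the ribosomal RNA precursor, and are shown as the near-identical pair that dominates the counts. SCARNA21 (chr17:7906122-7906260, plus strand), SNORA71A (chr20:38427309-38427442, minus strand) and SNORA63 (chr3:186787300-186787431, plus strand) are H/ACA RNAs that changed. In these 5 the capitals mark the ACA box near the 3′ end.
SNORA73A: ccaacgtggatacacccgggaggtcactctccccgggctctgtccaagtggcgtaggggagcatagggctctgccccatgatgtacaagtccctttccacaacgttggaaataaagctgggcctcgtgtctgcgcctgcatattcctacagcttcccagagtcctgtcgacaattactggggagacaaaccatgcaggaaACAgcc
SNORA73B: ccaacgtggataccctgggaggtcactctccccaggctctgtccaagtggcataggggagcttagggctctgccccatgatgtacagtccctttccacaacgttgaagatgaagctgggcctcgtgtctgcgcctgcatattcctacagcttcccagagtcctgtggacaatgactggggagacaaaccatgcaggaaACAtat
SCARNA21: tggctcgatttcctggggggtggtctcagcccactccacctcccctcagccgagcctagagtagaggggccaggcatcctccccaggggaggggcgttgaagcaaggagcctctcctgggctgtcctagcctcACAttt
SNORA71A: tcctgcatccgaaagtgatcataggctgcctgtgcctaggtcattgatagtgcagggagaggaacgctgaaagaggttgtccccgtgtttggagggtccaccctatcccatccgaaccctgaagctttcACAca
SNORA63: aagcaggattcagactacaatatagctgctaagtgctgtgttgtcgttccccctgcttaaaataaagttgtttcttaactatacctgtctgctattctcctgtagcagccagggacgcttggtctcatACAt

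SCARNA6 (chr2:233288676-233288940, plus strand) is of mixed type, with box C/D and H/ACA parts in 1 RNA, and is shown because it carries other boxes than those above. The capitals mark every TGATGA, the form of the C box that was searched, and every TGAG, the letters of the CAB box core. They were found by letters alone, and which of the marked TGAG, if any, is a CAB box was not tested. SCARNA2 (chr1:109100193-109100612, plus strand), of box C/D type, is 420 nt long, is not printed for its length, and holds TGATGA once.
SCARNA6: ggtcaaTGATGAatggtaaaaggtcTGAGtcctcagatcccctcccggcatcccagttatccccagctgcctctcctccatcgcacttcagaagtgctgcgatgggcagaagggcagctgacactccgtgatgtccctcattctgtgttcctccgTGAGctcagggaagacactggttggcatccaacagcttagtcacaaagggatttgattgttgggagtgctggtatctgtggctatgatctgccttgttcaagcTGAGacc

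SNORA73A and SNORA73B shared 93.2% of aligned bases, so a short read can fit both, and their counts are uncertain one against the other. SNORA71A shared 83.09% with SNORA71C and with SNORA71D, and SNORA5A 68.12% with SNORA5C. Over the 101 SNORA genes with 1 place in GENCODE, 74 ended in ACANNN and 91 had ACA within the last 8 bases. Of 79 box C/D SNORD genes 2 and 10 did, and of 61 other annotated short RNAs of the members' middle length range none and 7 did. TGATGA occurred in 3 of 101 SNORA genes, 9 of 20 SCARNA genes and 58 of 79 SNORD genes. TGAG was in 42 of 101 SNORA and 13 of 20 SCARNA genes, but also in 49 of the 61 other short RNAs, so these letters alone did not set the scaRNAs apart. The motifs were searched on the RNA's strand only, and ACANNN always lies within the wider ACA window. Lengths ran from 122 to 701 nt, with a median of 134 nt for SNORA and 154.5 nt for SCARNA genes.

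Of the 137 members, 121 matched 1 GENCODE gene, 11 matched none and 5 several. Of the 121, 80 lay in an intron of a host on the same strand, 39 overlapped an annotated exon of a host and 2 had no host. The hosts were mostly coding genes: 78 members lay in coding genes other than those for ribosomal proteins, 17 in genes with a ribosomal protein symbol (of which RPL32P3, around SNORA7B, is a pseudogene), 18 in snoRNA host genes (SNHG) and 6 in other noncoding genes. The whole sequence of 33 members also lay inside another annotated transcript, such as a retained-intron form of the host. In 31 of these 33 the deposited estimates held fractions of a read, which is how reads shared between transcripts appear, against 21 of the other 88. A gene on the opposite strand overlapped 15 members. Whether strand was used in the counting is not given in the sources used here.

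A few RNAs held most of the counts. SNORA73A, SCARNA2 and SNORA73B together had 67.8% of the 987725 member counts and the 10 most abundant members had 89.2%. Per length, SNORA73A led with 4472 CPM per kilobase, then SNORA73B with 1624, SCARNA2 with 1426 and SCARNA12, a mixed-type scaRNA, with 582. SNORA71A (469), SCARNA10 (456) and SCARNA5 (287) were also among the 8 highest. At the other end, 48 members, with 10 to 99 summed counts, did not pass the low-count filter, which left 89 in the tests among 21698 genes. Of the 89, 36 were under a mean of 1 CPM. The filter keeps a gene that is high in 1 group only, so the 89 are not all members and their counts describe the tested members alone.

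The members as a whole took a similar share of each group's counts, a sum made up mostly of SNORA73A, SCARNA2 and SNORA73B. That share was 0.271 ± 0.00401% in wild type with DMSO and 0.258 ± 0.0189% with JQ1 (SD, n = 3). In the knockout it was 0.280 ± 0.0139% with DMSO and 0.280 ± 0.0404% with JQ1. The ranges overlapped between DMSO and JQ1 in each genotype, and in the last group replicate 3 was the highest. With the RNA polymerase III transcripts left out of the total, the shares were 0.301%, 0.292%, 0.317% and 0.324% in the same order. In bulk RNA, fewer cells with an RNA and less of it per cell cannot be told apart.

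In wild-type cells, a set of scaRNAs and snoRNAs was lower with JQ1 and SCARNA2 was higher. Of the 89 tested members 11 were called, meaning an adjusted p under 0.05 (edgeR quasi-likelihood, Benjamini-Hochberg over all genes tested). That was 12.4% of the members, 10 lower and 1 higher, while 33.1% of all genes tested were called, 16.2% lower and 16.9% higher. The members' median SE was 0.23, against 0.15 over all genes tested. The median log2 fold change was -0.16 over the members and -0.03 over all genes tested. It was -0.09 over the members without wild-type JQ1 replicate 3, and -0.29 scaled by library totals only, where the median of all genes was -0.16. By class, 7 of 72 tested SNORA genes were lower and none higher, and of 17 tested SCARNA genes 3 were lower and 1 higher.

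SCARNA21, which guides pseudouridine formation in the minor spliceosomal RNA U12, had the smallest adjusted p of the members in both JQ1 comparisons. Its levels were 17.0, 19.3 and 17.1 CPM in wild type with DMSO and 11.9, 11.8 and 10.2 CPM with JQ1. In the knockout they were 20.8, 19.4 and 18.7 CPM with DMSO and 12.7, 11.4 and 10.4 CPM with JQ1. Every JQ1 library lay below every DMSO library in both genotypes. With JQ1 it was at 0.635 times the DMSO level in wild type, or -0.66 as log2 with an SE of 0.10 and an adjusted p of 1.07e-04. In the knockout it was at 0.584 times, or -0.77 as log2 with an SE of 0.10 and an adjusted p of 2.16e-05. The difference between the genotypes' responses was -0.12 (95% interval -0.41 to 0.17).

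SCARNA6, the mixed-type RNA also named U88, was at 37.0, 36.1 and 36.4 CPM in wild type with DMSO and 31.2, 29.02 and 26.2 CPM with JQ1. These groups did not overlap, and the log2 fold change was -0.34 (SE 0.09, adjusted p = 0.00713). In the knockout it was at 36.6, 33.99 and 31.9 CPM with DMSO and 29.9, 26.6 and 33.0 CPM with JQ1. The knockout groups overlapped through replicate 3, and the change of -0.19 missed the threshold (adjusted p = 0.103).

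SNORA71A, a guide for small-subunit ribosomal RNA, was at 79.1, 71.7 and 67.4 CPM in wild type with DMSO and 57.8, 57.5 and 52.3 CPM with JQ1. It fell by 0.38 on the log2 scale (SE 0.10, adjusted p = 0.00900), with no overlap of the groups. In the knockout it was at 65.5, 70.6 and 64.7 CPM with DMSO, and 49.5, 50.9 and 67.0 CPM with JQ1. As with SCARNA6, only replicate 3 of the JQ1 group reached the DMSO range there. Its relative SNORA71C, from the same host, was lower as well in wild type (log2 fold change -0.35, adjusted p = 0.0392). That call was lost in 8 of 19 other settings, with an adjusted p of up to 0.173. The 2 RNAs are similar in sequence, so reads can be shared between their rows.

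SCARNA2, the box C/D guide for methylation of U2 snRNA and, like SCARNA17, listed with a promoter of its own, went the other way. Its levels were 435, 466 and 521 CPM in wild type with DMSO and 676, 652 and 604 CPM with JQ1. The JQ1 libraries were all higher, by 1.36-fold or 0.44 as log2 (SE 0.13, adjusted p = 0.0165). In the knockout the values were 578, 585 and 523 CPM with DMSO and 693, 550 and 907 CPM with JQ1. These overlapped, and the change of 0.35 (adjusted p = 0.0482) was 0.15 (adjusted p = 0.241) without replicate 3. Scaled by library totals only, SCARNA2 was not called in wild type either (0.31, adjusted p = 0.0524). Without replicate 1 of the wild type with DMSO its adjusted p was 0.0631, and without replicate 1 of the wild type with JQ1 it was 0.0593.

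**Figure D1:**
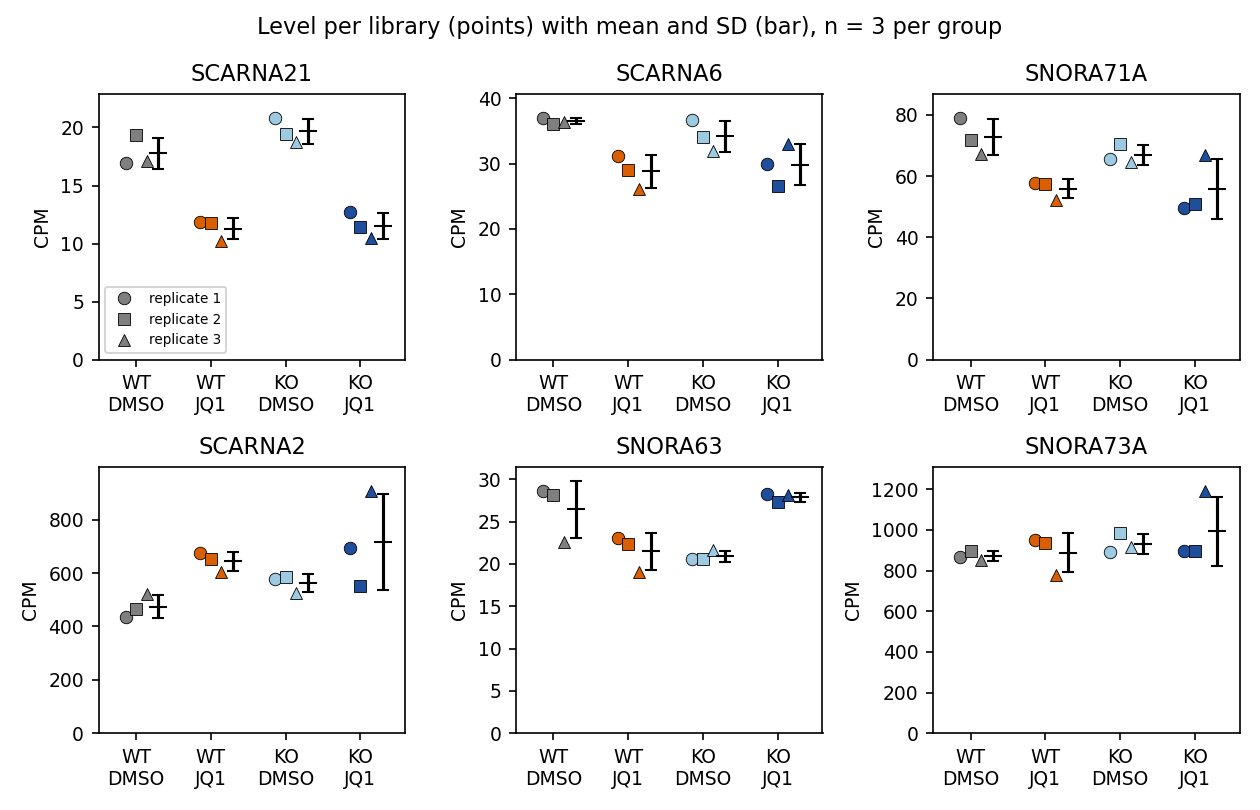
Level of 6 members in CPM (vertical axis, from 0) in each library of the 4 groups, with the mean and SD of the 3 replicates beside the points. SCARNA21 is lower with JQ1 in every library, while the triangle of knockout JQ1 replicate 3 lies above its group for SNORA71A, SCARNA2 and SNORA73A.

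The other members called in wild type were less abundant. SCARNA16, an H/ACA scaRNA, fell by 0.58 on the log2 scale (SE 0.15, adjusted p = 0.00926), from 6.23, 5.42 and 5.00 CPM to 3.36, 4.60 and 3.25 CPM. SNORA24, a guide for small-subunit ribosomal RNA, went from 1.88, 1.95 and 1.84 CPM to 1.16, 1.45 and 0.740 CPM (log2 fold change -0.77, adjusted p = 0.0166). In both the groups did not overlap. SNORA5A (-0.63), SNORA5C (-0.61) and SNORA31 (-0.59) were lower with adjusted p from 0.0380 to 0.0474. Each of these 3 had a mean under 3 CPM over the 12 libraries, and the calls were lost in 7, 11 and 11 of 19 other settings. SNORA5C was at -0.37 without wild-type JQ1 replicate 3. SNORA63 was lower by 0.30 (adjusted p = 0.0248), although its groups overlapped.

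The abundant U17 RNAs did not move detectably. SNORA73A was at 869, 898 and 852 CPM with DMSO and 951, 935 and 777 CPM with JQ1 in wild type. In the knockout it was at 891, 985 and 914 CPM with DMSO and 898, 895 and 1191 CPM with JQ1. Its log2 fold changes with JQ1 were 0.02 (95% interval -0.19 to 0.24) in wild type and 0.10 (-0.11 to 0.31) in the knockout. SNORA73B gave -0.05 (-0.32 to 0.22) and -0.02 (-0.29 to 0.25). Groups overlapped in each of these comparisons.

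Single wild-type libraries were left out in turn. The member count was 7 without wild-type DMSO replicate 1, 2 or 3, and 7 without wild-type JQ1 replicate 1 or 3. It was 11 without wild-type JQ1 replicate 2, with SNORA49 and SNORA7B in place of SNORA31 and SNORA5A. The share of all genes called fell as well, from 33.1% to 25.9%, 26% and 26.4% without wild-type DMSO replicates 1, 2 and 3. That share was 25.4%, 25.6% and 28.9% without wild-type JQ1 replicates 1, 2 and 3. Lost calls were thus not confined to the members. SCARNA21, SCARNA6, SNORA71A and SCARNA16 were called in all 19 other settings tried. Depth set the precision: the median SE was 0.39 for the 36 members under 1 CPM, 0.19 for the 33 from 1 to 10 CPM and 0.11 for the 20 at or above 10 CPM. None of the 36, 5 of the 33 and 6 of the 20 were called, beside 33.1% of all genes tested at any level.

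**Figure D2:**
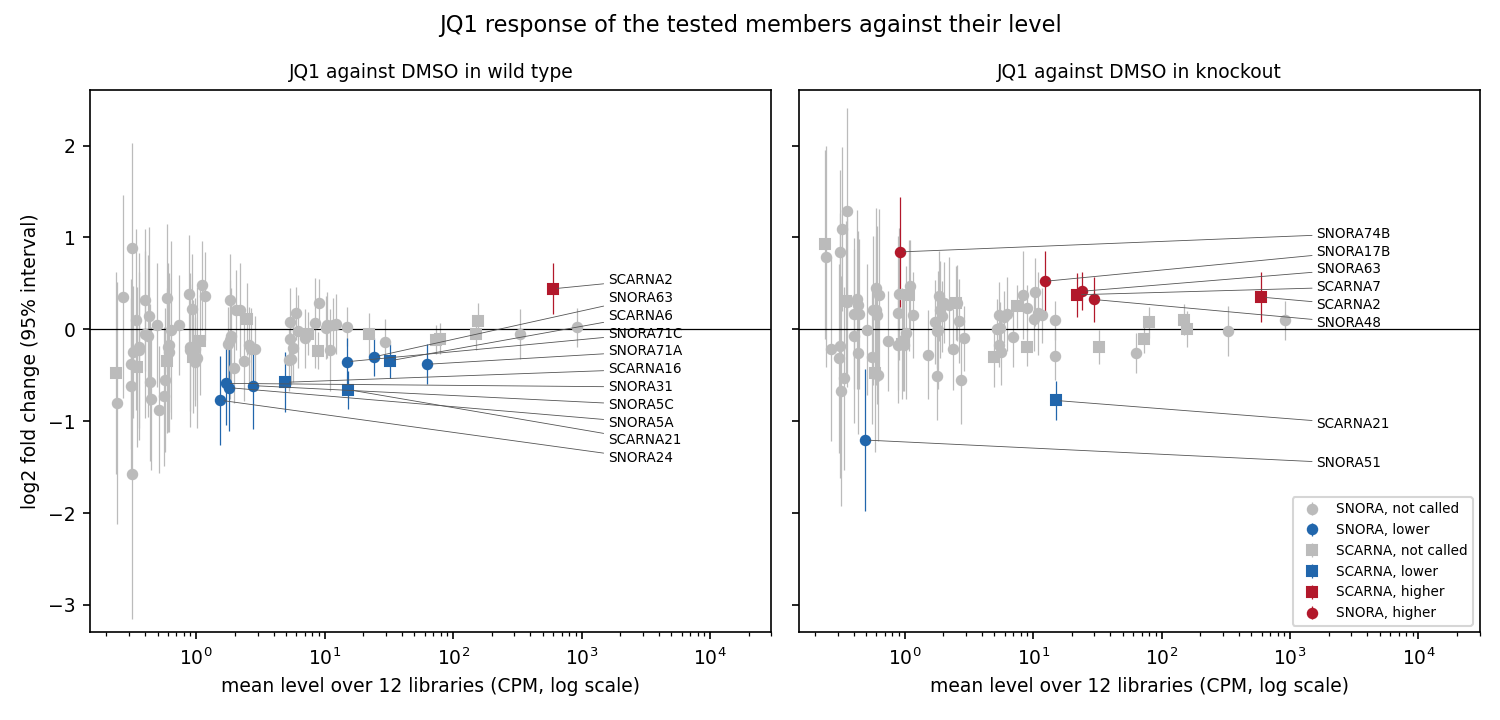
Log2 fold change with JQ1 and its 95% interval (vertical axis) against the mean level (horizontal axis, log scale) for the 89 tested members, in wild type (left) and knockout (right). The intervals narrow to the right, and the members called in wild type lie below 0 except SCARNA2.

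In the knockout, the JQ1 comparison gave 8 called members, 6 higher and 2 lower, while 34.4% of all genes tested were called, 16.7% higher and 17.8% lower. The higher ones were SNORA63, SNORA17B, SCARNA7, SNORA74B, SNORA48 and SCARNA2, and the lower ones SCARNA21 and SNORA51. The median log2 fold change was 0.11 over the members and -0.00353 over all genes tested. Scaled by library totals only, which moved the median of all genes to -0.12, 2 members were higher and 10 lower, and the members' median was -0.01. In that fit 35.3% of all genes were called.

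Without knockout JQ1 replicate 3 the balance turned. There were then 6 called of 91 tested members, 1 higher and 5 lower, while 33.6% of all genes tested in that fit were called. The median was -0.08 over the members and -0.02 over all genes. SNORA63 was the member still higher (0.41, adjusted p = 0.00572). The 5 lower ones were SCARNA21 and 4 that had been called lower in wild type: SNORA71A (-0.41, adjusted p = 3.75e-04), SNORA71C (-0.45, adjusted p = 0.00485), SCARNA6 (-0.27, adjusted p = 0.0201) and SCARNA16 (-0.43, adjusted p = 0.0493). SCARNA7 (0.26), SNORA17B (0.32), SNORA48 (0.21), SNORA74B (0.58) and SNORA51 (-1.01) were then no longer called, with adjusted p from 0.0685 to 0.165, nor was SCARNA2. Without knockout DMSO replicate 3, 4 members were called, beside 28.9% of all genes tested in that fit.

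SCARNA7, a box C/D scaRNA, was at 20.5, 19.4 and 18.7 CPM with DMSO and 21.3, 25.4 and 29.3 CPM with JQ1 in the knockout. All JQ1 libraries were higher, but replicate 3 was the highest. SNORA17B went from 10.4, 11.02 and 9.90 CPM to 13.4, 12.6 and 18.8 CPM, and SNORA48 from 28.7, 27.6 and 25.9 CPM to 31.2, 32.3 and 39.3 CPM. In both, replicate 3 again lay farthest from the DMSO libraries. SNORA17B has 2 GENCODE genes, so its place and host are not given. SNORA51 was counted 21, 18.0 and 14 times with DMSO and 9, 6 and 6 times with JQ1, so its change of -1.21 as log2 (SE 0.36, adjusted p = 0.0171) rested on few counts.

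**Figure D3:**
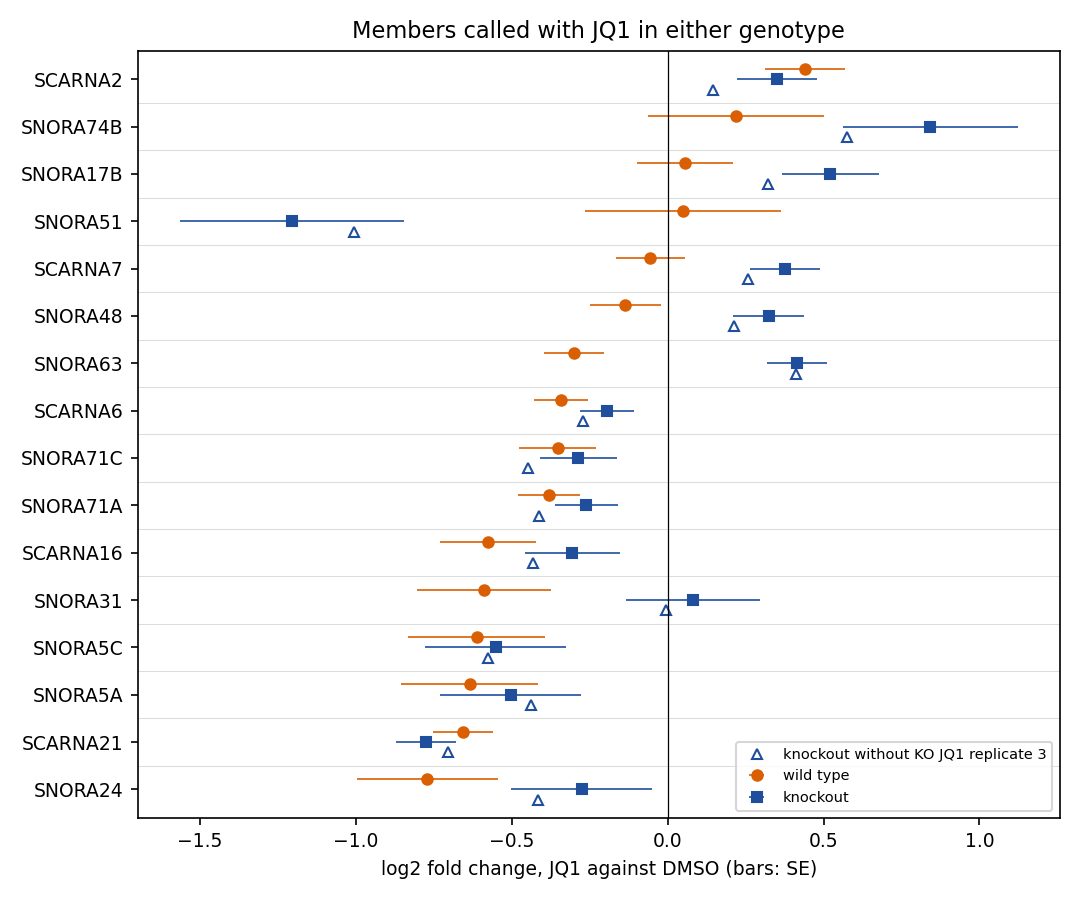
Log2 fold change with JQ1 (horizontal axis, bars are SE) for the 16 members called in either genotype, in wild type (circles), in the knockout (squares) and in the knockout without JQ1 replicate 3 (open triangles). The triangle lies left of the square for 13 of the 16, and SNORA63 is the member called on opposite sides of 0 in the 2 genotypes.

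SNORA63, also named E3, a guide for large-subunit ribosomal RNA, was the member called in opposite directions with JQ1 in the genotypes. Its levels were 28.6, 28.2 and 22.6 CPM in wild type with DMSO and 23.0, 22.4 and 19.0 CPM with JQ1. In the knockout they were 20.5, 20.6 and 21.7 CPM with DMSO and 28.3, 27.3 and 28.1 CPM with JQ1. The knockout groups were tight and apart, and replicate 3 did not stand out in them. The log2 fold change with JQ1 was 0.41 in the knockout (SE 0.10, adjusted p = 0.00349), called in all 19 other settings, against -0.30 in wild type. The difference between these responses was 0.71 (SE 0.13). Its adjusted p was 0.0627 in edgeR's test, so it missed the threshold, and 0.00109 with DESeq2. Without knockout JQ1 replicate 3 edgeR gave 0.0402, and over all 18 other settings the adjusted p ran from 6.26e-04 to 0.211. SNORA63 was chosen here from its calls in the single contrasts.

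In the main fit of all 12 libraries, edgeR called no member for a difference between the JQ1 responses of the genotypes. Of the 89 members 0 passed, 8 had an unadjusted p under 0.05 and DESeq2 called 1, SNORA63. SNORA63 was called in 4 of 18 other settings, DESeq2 included. Over all genes tested 0.134% were called, 0.0323% with a higher and 0.101% with a lower response in the knockout. At an unadjusted p under 0.05 there were 1817 of 21698 genes. The median difference was 0.16 over the members, with 69 of 89 above 0, and -0.00611 over all genes, with 10607 of 21698 above 0. Without knockout JQ1 replicate 3 the median was 0.07 with 56 of 89 above 0, and -0.02 over all genes.

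Between genotypes, few members differed. With DMSO 2 members were called, both lower in the knockout, against 7.92% of all genes tested (3.47% higher and 4.44% lower). SNORA63 was lower by 0.34 on the log2 scale (adjusted p = 0.0430), with every knockout library under every wild-type one. SNORA19, a guide for large-subunit ribosomal RNA, was counted 19, 11 and 14 times in wild type and 4, 5 and 4 times in the knockout. Its log2 fold change was -1.58 (SE 0.39, adjusted p = 0.0202), again with no overlap but with few counts. SNORA19 was not called without knockout DMSO replicate 1 (adjusted p = 0.0878), 2 (0.0542) or 3 (0.0802), or without wild-type DMSO replicate 1 (0.113). SNORA63 was not called in 11 of 19 other settings, its adjusted p reaching 0.208 without wild-type DMSO replicate 1.

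With JQ1, 1 member was called between genotypes, against 8.57% of all genes tested (3.01% higher and 5.56% lower). It was SNORA63, higher in the knockout by 0.38 (SE 0.10, adjusted p = 0.0226), with no overlap. The call was lost without wild-type JQ1 replicate 2 (adjusted p = 0.0506) or 3 (0.110) or knockout JQ1 replicate 1 (0.0617). The members' median log2 fold change was 0.18 with 72 of 89 above 0, but 0.08 with 52 of 89 above 0 without knockout JQ1 replicate 3. The comparisons with DMSO and with JQ1 use different libraries, while each shares libraries with the JQ1 comparisons.

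Host genes were compared for the 82 tested members that had a tested host, over 68 hosts. SCARNA2, listed with a promoter of its own, is among them because a noncoding gene spans it. Where several genes span a member, as for SCARNA16 and SNORA73A, genes with a row of counts came first, then named genes before clone names. Among those left, the one with the shortest span was taken. With JQ1 in wild type 49 of 82 pairs had the same sign, and in the knockout 46 of 82. Both were called in 7 pairs in wild type, 3 of them in the same direction, and in 4 pairs in the knockout, 3 in the same direction. Of the 68 hosts, 29 (42.6%) were called in wild type and 31 (45.6%) in the knockout. Over all genes tested the shares called were 33.1% and 34.4%. In the fit without knockout JQ1 replicate 3, 52 of 82 pairs in the knockout had the same sign and both were called in 2 pairs, each in the same direction. Members of 1 host are not independent of each other, so these are counts without a test.

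SCARNA21 and its host CHD3, a chromatin remodeller, changed by nearly equal amounts. SCARNA21 lies in an intron of CHD3, its counts were whole numbers and no other annotated transcript holds its sequence. Reads of unspliced CHD3 RNA over that stretch would also fall in the SCARNA21 row, and their part in its values was not tested. CHD3 gave -0.72 (adjusted p = 7.58e-06) in wild type and -0.77 (adjusted p = 3.42e-06) in the knockout, beside -0.66 and -0.77 for SCARNA21. SCARNA16 and its host SNHG20 were both lower in wild type (-0.58 and -0.95), as were SNORA24 and SNHG8 (-0.77 and -0.59). Both hosts have an annotated transcript that holds the RNA's whole sequence, so reads can be shared between the rows of host and RNA. SNORA74B and ATP6V0E1 were both higher in the knockout (0.84 and 0.96), and SCARNA7 and KPNA4 likewise (0.38 and 0.28). The hosts ATP6V0E1 (0.98) and KPNA4 (0.35) were still called without knockout JQ1 replicate 3, while SNORA74B (adjusted p = 0.165) and SCARNA7 (adjusted p = 0.0685) were not.

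In other pairs the RNA and the host did not move together. SCARNA6 was lower in wild type while its host ATG16L1, an autophagy gene, was higher (-0.34 and 0.34). SNORA5A and SNORA5C were lower and their host TBRG4 higher (0.21), and SNORA31 lower and TPT1 higher (0.29). SNORA71A and SNORA71C were lower, with SNHG17 at -0.04 and not called (adjusted p = 0.848). SNORA63 changed in both genotypes with EIF4A2, a translation initiation helicase, at -0.04 (adjusted p = 0.587) and 0.10 (adjusted p = 0.161). With JQ1, EIF4A2 was higher in the knockout than in wild type (0.31, adjusted p = 0.00160), as SNORA63 was. A retained-intron transcript of EIF4A2 holds all of SNORA63, and the SNORA63 counts had fractions, so its reads and those of the retained intron cannot be told apart.

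**Figure D4:**
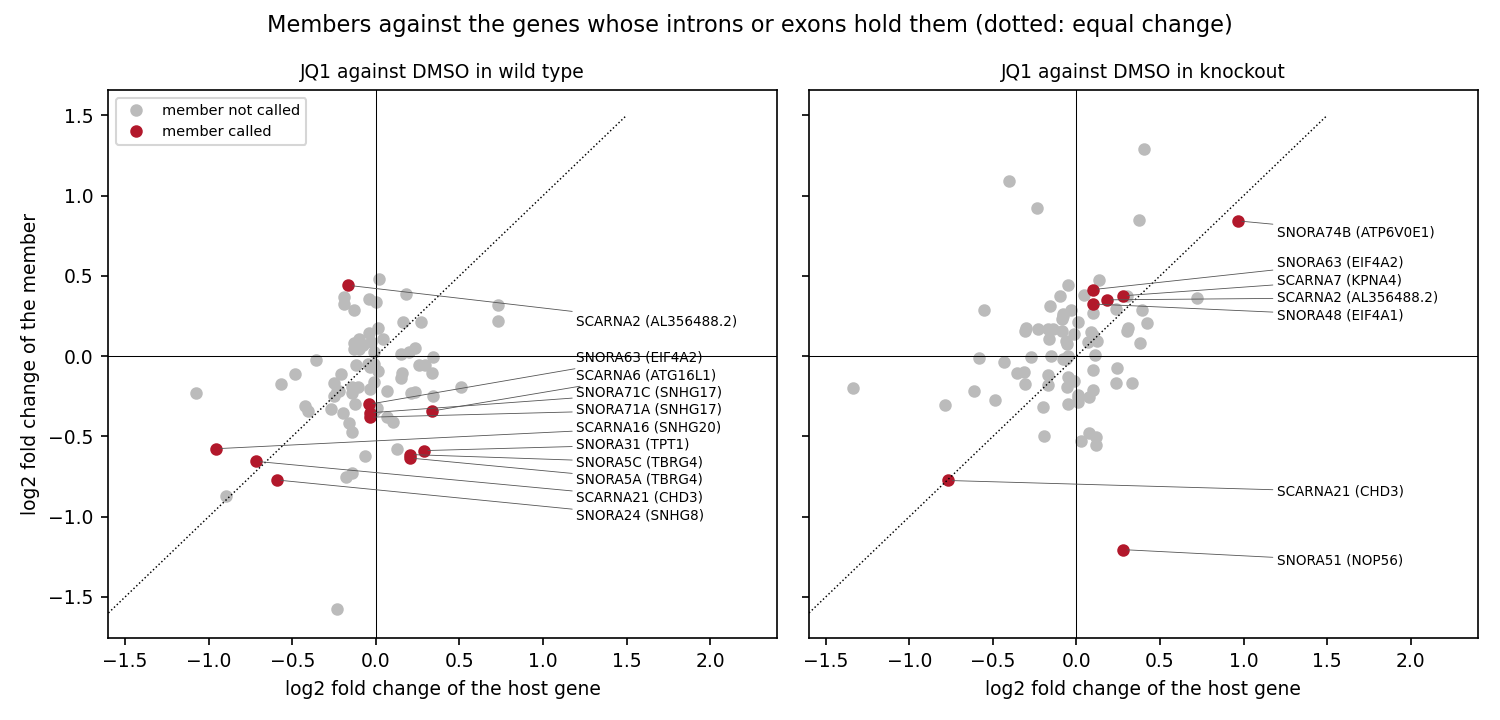
Log2 fold change of each tested member (vertical axis) against that of its host gene (horizontal axis) with JQ1 in wild type (left) and knockout (right), for 82 pairs, with the dotted line of equal change. SCARNA21 with CHD3 lies near the line in both panels, while SNORA5A, SNORA5C, SNORA31 and SCARNA6 lie below 0 with hosts above 0.

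By host class in wild type, 4 of 15 tested members in SNHG genes and 6 of 47 in other coding genes were called lower with JQ1, beside 16.2% of all genes tested. Of the 15 tested members in genes with a ribosomal protein symbol, edgeR called 0 with JQ1 in either genotype in the fit of all 12 libraries, with 1 and 0 at an unadjusted p under 0.05, beside 33.1% and 34.4% of all genes called. Fits without 1 library called SNORA21B, SNORA7B, SNORA3A or SNORA62 from such hosts lower in wild type, of which SNORA62 was not among the 15. By box type, 2 of 10 H/ACA scaRNAs and 1 of 4 mixed ones were lower in wild type. Of 3 box C/D scaRNAs, SCARNA2 was higher in wild type and SCARNA2 and SCARNA7 in the knockout. Once knockout JQ1 replicate 3 was left out, none of the 3 was called in the knockout by edgeR, with 1 at an unadjusted p under 0.05.

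Of the 4 core proteins that bind these RNAs, GAR1 alone was called with JQ1. DKC1, the pseudouridine synthase, was at 0.01 in wild type and 0.04 in the knockout on the log2 scale, and NOP10 and NHP2 were not called either. GAR1, which joins when the particle matures, fell by 0.38 (adjusted p = 0.00336) and by 0.33 (adjusted p = 0.00841), or -0.30 in the knockout without JQ1 replicate 3 (adjusted p = 0.0228). Among 17 genes for core proteins, assembly, end maturation and telomerase, 3 were higher and 2 lower in wild type (4 and 4 without knockout JQ1 replicate 3), and 3 higher and 4 lower in the knockout (2 and 4 without JQ1 replicate 3). That was 29.4% and 41.2% of the list, beside 33.1% and 34.4% of all genes tested. PIH1D1, of the assembly machinery, was higher in wild type (0.29, adjusted p = 0.00136), and EXOSC10, an exosome nuclease, lower in the knockout (-0.22, adjusted p = 0.00859). With DMSO, NHP2 was higher in the knockout than in wild type (0.20, adjusted p = 0.0289). Among the end-maturation genes, PAPD5, the oligoadenylating polymerase, rose (0.58 and 0.40) and PARN, the trimming deadenylase, fell (-0.26 and -0.30), while TOE1, another deadenylase, rose (0.28 and 0.30).

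In the list of 21 Cajal body and SMN complex genes, 3 were higher and 6 lower in wild type and 2 higher and 6 lower in the knockout (1 and 5 without JQ1 replicate 3). That was 42.9% and 38.1% of the list, beside 33.1% and 34.4% of all genes. COIL, for the scaffold coilin, was lower in both genotypes (log2 fold changes -0.38 and -0.39), as was LSM11 of the histone mRNA processing U7 particle (-0.54 and -0.51). WRAP53, which carries scaRNAs to Cajal bodies, was higher (0.49 and 0.45), and these 3 were called in the knockout without JQ1 replicate 3 too. GEMIN6 of the SMN complex was lower in wild type (-0.38, adjusted p = 0.00180). SMN2 was lower in the knockout with JQ1 than with DMSO (-0.36) and than in wild type with JQ1 (-0.29), but its near-identical copy SMN1 makes its counts uncertain. With DMSO, LSM10 (0.28) and GEMIN5 (0.21) were higher in the knockout than in wild type. TERC, the telomerase RNA, which ends in an H/ACA domain but was no member, was lower in the knockout with DMSO (-0.94, adjusted p = 0.0107) and with JQ1 (-0.80, adjusted p = 0.0311). Its counts were 349 to 404 in wild type and 111 to 227 in the knockout with DMSO, and 222 to 348 and 122 to 184 with JQ1, without overlap.

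The box C/D snoRNAs give the nearest comparison. Of 34 tested SNORD genes, 2 were higher and none lower with JQ1 in wild type, and 8 higher and none lower in the knockout, beside 33.1% and 34.4% of all genes called. Their median log2 fold change was -0.12 in wild type and 0.30 in the knockout. With knockout JQ1 replicate 3, which had the highest share of SNORD counts, left out, 7 of 36 tested were higher in the knockout and the median was 0.15. SNORD3A, the U3 RNA of ribosomal RNA processing, was higher with JQ1 in both genotypes (0.86 and 1.11, the latter 1.03 without knockout JQ1 replicate 3). It was lower in the knockout with DMSO (-0.76) and with JQ1 (-0.51, or -0.60 without that library). All 5 short RNA polymerase III transcripts were higher with JQ1 in wild type and 3 of 5 in the knockout, with median log2 fold changes of 0.29 and 0.31. With that library left out, 1 of 5 was higher in the knockout and the median was 0.21. The part of that shift in the members' values was not tested.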

How the data were processed

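RNA-seq of 12 A375 libraries was analysed. The authors' deposited raw table holds estimated counts per gene symbol, and a second deposited table holds a normalized signal. Per the submitters' processing notes, FastQC, MultiQC, Trim Galore, cutadapt, kallisto and DESeq2 were used with GRCh38.p10. Library selection and strand use in counting are not given in the sources used here. Such estimates divide reads among transcripts that share sequence, and libraries prepared for long RNA recover short RNA unevenly.

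Estimated counts were rounded and fitted with edgeR 4.0.16 (R 4.3.3; filterByExpr over the 4 groups, TMM, quasi-likelihood test, 12 libraries, 1 term per group) over 21698 genes, with Benjamini-Hochberg adjustment and a threshold of 0.05. Intervals are at 95%. DESeq2 1.42.0, limma 3.58.1 on log2 of the deposited normalized signal plus 1, and the other alternatives are under the dependence on processing. The fit was tested on simulated data. Hosts, motifs and sequences came from GENCODE release 29 by symbol.

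The members and lists (H/ACA proteins, Cajal body genes, hosts, box C/D and spliceosomal RNAs, RNA polymerase III RNAs) were chosen with earlier results of these data known. Named were the called members with the smallest adjusted p, the most abundant members per length, and always SNORA73A, SNORA73B, SCARNA2, SCARNA17 and MAPKAPK2. From the H/ACA and Cajal body lists, up to 4 called genes per comparison with the smallest adjusted p were named, plus TOE1, TERC, DKC1 and NOP10 for their roles. Of the box C/D RNAs SNORD3A alone is described, and of the hosts those of called members. Of 50 tested RNU snRNAs, 7 were higher and 1 lower with JQ1 in wild type, and 7 higher and none lower in the knockout. That was 16% and 14% of them, beside 33.1% and 34.4% of all genes tested. Without knockout JQ1 replicate 3, 6 of 54 tested were higher in the knockout, beside 33.6% of all genes called. That alternative was chosen for the lists and hosts after seeing the data.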

Additional observations from a re-analysis of the deposited data

How the results depend on the processing

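Members called with JQ1 in wild type were 11, but 17 scaled by library totals only (all lower), 7 with limma on the deposited signal and 4 at an adjusted p of 0.01. Of all genes, 33.1% were called in the main fit, 35.3% with library totals only and 30.3% with limma. In the knockout the JQ1 count of 8 became 2 at 0.01. The share of all genes called at 0.01 is not given here, so the counts at 0.01 cannot be set against it. Between genotypes with DMSO the count of 2 became 4 without the low-count filter, 5 with the groups compared fitted alone and 0 at 0.01. The share of all genes called there was 7.92% in the main fit, 4.62% without the filter and 12.7% with those groups alone. Between genotypes with JQ1 the count of 1 became 2 with DESeq2, 4 without the filter, and 0 with the groups compared fitted alone, with limma and at 0.01. All genes called went from 8.57% to 9.4% with DESeq2, 5.17% without the filter, 4.66% with those groups alone and 7.55% with limma. For the difference of responses, 0 became 1 with DESeq2 and 1 without the filter, while all genes called went from 0.134% to 1.13% and 0.557%. Leaving out each library in turn gave 7 to 13 (JQ1 in wild type), 4 to 11 (JQ1 in knockout), 0 to 3 (genotypes with DMSO), 0 to 3 (genotypes with JQ1) and 0 to 1 (difference). In the same order, all genes called ran over 25.4% to 38%, 28.3% to 33.6%, 4.83% to 11.9%, 5.41% to 10.5% and 0.0354% to 0.395%.

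With the replicate number as a block, 7 members were called with JQ1 in wild type and 1 between genotypes with DMSO, and 6, 1 and 0 in the others. All genes called were then 31.3% and 6.85%, and 32.9%, 7.23% and 0.0968% in the others. Deviations of same-numbered libraries correlated at -0.115 to 0.0786, so no shared deviation by number was seen. Whether same-numbered samples were handled together is not given in the sources used here, and these values cannot decide it.

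Scaling without short RNAs left all 5 counts as they were. No called member changed sign in any setting. Members under 1 CPM had a median SE of 0.39, so changes of that size were not detectable.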
